A study of Canis lupus familiaris with 13 samples.

Results

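The genes described here are 10 of the 43427 gene symbols in the count table and were chosen by symbol: EPCAM, CDH1, CLDN3, CLDN4, CLDN7, ESRP1 and GRHL2, called the 7 epithelial genes below, and ZEB1, ZEB2 and VIM, called the 3 mesenchymal genes. All 10 were found in the table, and all 10 passed the filter on low counts. They were followed through 13 biopsies of 4 tumors in 3 companion dogs treated with IMAX, a nanoparticulate complex that was injected into the tumor and carries paclitaxel and a cyclic dinucleotide on a conjugate of polyethyleneimine with lithocholic acid. Dog RV had a soft tissue sarcoma of the hock, with 4 libraries: pretreatment, 2 days after the second treatment, and 2 weeks after the third treatment at the injection site and adjacent to it. Dog CL had a cranial and a caudal mammary tumor on the left mammary chain, each biopsied pretreatment and then, after the second treatment, at 1 week and at 1 month. Dog BM had a mammary tumor in the left 5th gland, biopsied pretreatment and, after the second treatment, at 1 week and at 3 weeks. Libraries were grouped as before (4), early (4: RV at 2 days, the others at 1 week) and late (5). The dogs were pets, none of the 13 libraries comes from an untreated tumor followed over time, the tumors of CL share a host, and, apart from the late sites of RV, each tumor gave 1 library per time point. The 3 libraries of BM carry another series of library names than those of RV and CL, so that dog and that series cannot be told apart.

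EpCAM and E-cadherin (CDH1) hold neighboring epithelial cells together, and claudins seal the tight junctions between them. ESRP1 directs epithelial splicing, and GRHL2 is a transcription factor that keeps epithelial genes, CDH1 among them, switched on. ZEB1 and ZEB2 are repressors that bind the promoters of CDH1 and other epithelial genes and take part in the epithelial-mesenchymal transition, in which cells lose junctions and gain vimentin (VIM), an intermediate filament protein. ZEB2 and VIM are also made by fibroblasts, endothelial cells and leukocytes, so in a biopsy their level reads the mixture of cells as well as the tumor cells. In such bulk samples, fewer cells of a type and less RNA per cell cannot be told apart.

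In RefSeq's annotation of the dog assembly UU_Cfam_GSD_1.0, CLDN4 (chr6:6409111-6410786) and CLDN3 (chr6:6450257-6451264) are neighbors, 39470 bases apart. CLDN7 (chr5:32430822-32432633) and CDH1 (chr5:81341865-81420857) share a chromosome, as do ZEB1 (chr2:13140991-13322104) and VIM (chr2:18621519-18629571). EPCAM lies at chr10:50540181-50553474, GRHL2 at chr13:3335250-3493208, ZEB2 at chr19:48064344-48202432 and ESRP1 at chr29:39986649-40042146. Levels are given as CPM, the counts per 1000000 counts on the tested genes of a library, its size corrected by the TMM method, and are compared between libraries and not between genes. Total counts per library ranged from 11622444 to 29931125. The libraries were checked against marker lists: the mean of 8 luminal epithelium markers was 6.81 log2 CPM in BM before treatment and 7.75 in CL cranial, but 3.67 in CL caudal, close to the 2.02 to 3.40 of the sarcoma. In the RV library of 2 days, labelled mid mass, the mean of 14 epidermis markers was 7.36 log2 CPM against 0.69 before treatment. In the paper's histology of the RV biopsy at that time, tumor cells were not definitively identified, and the diagnosis was granulomatous to pyogranulomatous dermatitis. The tests and correlations that take this library in are also given without it where it moves them.

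EPCAM was highest in the pretreatment biopsy of BM among the 13 libraries, at 459.8 CPM, and was 122 CPM at 1 week and 11.5 CPM at 3 weeks. In CL cranial it was 368 CPM before treatment, 169.7 CPM at 1 week and 311 CPM at 1 month. In CL caudal the same order of times gave 49.4, 13 and 64.1 CPM. Both CL tumors were thus lowest at 1 week and had come back to near the pretreatment level at 1 month, whereas BM was lower at each later biopsy. In RV, EPCAM was 2.13 CPM before treatment, 13.2 CPM at 2 days, and 1.02 and 1.75 CPM at the late injection and adjacent sites. The third biopsy of BM was thus the lowest mammary library for EPCAM, though only just below CL caudal at 1 week. It was close to the 2-day library of RV and well above the other RV libraries.

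CDH1, which encodes E-cadherin, had its highest level in CL cranial, with 990.4 CPM before treatment, 590.1 CPM at 1 week and 435.6 CPM at 1 month. BM had 537.6, 318 and 25.4 CPM in its 3 biopsies, and CL caudal held 176, 145 and 175 CPM. The other mammary libraries all stayed at 145 CPM or above, so the third BM biopsy was apart from them. RV had 10.5 CPM before treatment, 55.2 CPM at 2 days, and 10.1 and 10.2 CPM at its late sites. Set against vimentin, BM had 529 CDH1 counts per 1000 VIM counts before treatment, 78.6 at 1 week and 2.83 at 3 weeks, against 0.912 to 1.21 in the RV libraries other than the 2-day one, which had 42.0.

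**Figure D1:**
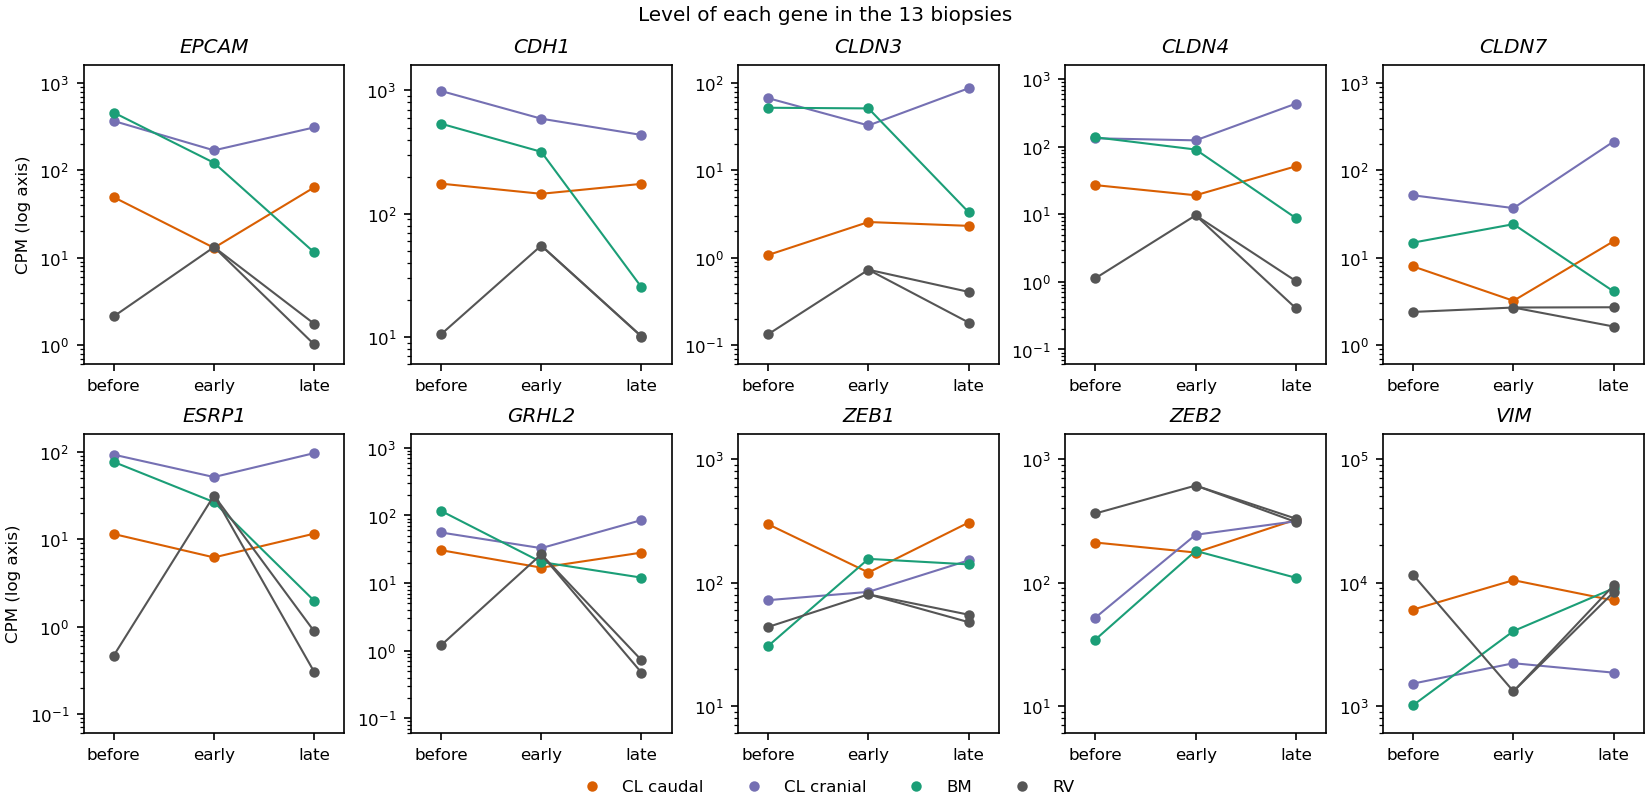
Level of each of the 10 genes in CPM (log axis) in the 13 biopsies, before, early and late, with a line for each tumor; RV has 2 late points, from the injection and adjacent sites. The 7 epithelial genes of BM end at levels between 1.97 and 25.4 CPM, while VIM of BM climbs from 1016 to 8990 CPM.

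Among the claudins, which form the strands of tight junctions, CLDN4 followed EPCAM most closely (Pearson r = 0.98 over the 13 libraries, which share tumors and dogs). CLDN4 was 138, 90.7 and 8.78 CPM in the 3 biopsies of BM, and 133, 124 and 433 CPM in CL cranial. CL caudal had 27.0, 19.1 and 51.3 CPM, and RV 1.13 CPM before treatment, 9.65 CPM at 2 days, and 0.407 and 1.03 CPM late. CLDN4 was thus at its maximum in the last biopsy of both CL tumors and at its minimum in the last biopsy of BM.

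CLDN3 was 52.2 CPM in BM before treatment and 51.3 CPM at 1 week, and then 3.32 CPM at 3 weeks, so that its lower level was seen in the last biopsy alone. CL cranial had 67.2, 32.7 and 87.3 CPM. CL caudal had only 1.08, 2.57 and 2.32 CPM, far below the cranial tumor of the same dog. In RV, CLDN3 rested on 2 to 13 counts per library, around the floor of 3 counts. No fold within RV or against RV alone is given for it, except under the setting without the replicate block. Means over the epithelial genes, correlations and fits over all tumors do take these counts in.

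CLDN7 went its own way in BM, with 14.9 CPM before treatment, 24.2 CPM at 1 week and 4.12 CPM at 3 weeks. In CL cranial it was 51.9, 37.0 and 214 CPM, and in CL caudal 7.96, 3.22 and 15.5 CPM. In RV it stayed between 1.63 and 2.71 CPM in all 4 libraries, the 2-day library included. CLDN7 had the smallest difference of the 7 epithelial genes both in BM at 3 weeks and in RV at 2 days.

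ESRP1, the splicing regulator, was 76.8, 26.6 and 1.97 CPM in BM. It was 93.0, 51.6 and 96.9 CPM in CL cranial and 11.5, 6.19 and 11.6 CPM in CL caudal, where the levels at 1 month differed from those before treatment by 0.06 and 0.01 on the log2 scale. In RV it was 0.466 CPM before treatment, 31.7 CPM at 2 days, and 0.882 and 0.302 CPM late. The 2-day library of RV thus had more ESRP1 than any biopsy of CL caudal.

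GRHL2, the transcription factor, had its lower level in BM already at 1 week, with 117 CPM before treatment, 20.5 CPM at 1 week and 12.1 CPM at 3 weeks. Its BM values differ from those of CDH1, which at 1 week still had most of its pretreatment level. CL cranial had 56.1, 32.9 and 85.6 CPM of GRHL2, and CL caudal 30.7, 16.9 and 28.2 CPM. RV had 1.20 CPM before treatment, 26.7 CPM at 2 days, and 0.475 and 0.726 CPM at its late sites.

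The 3 mesenchymal genes did not move as a unit. ZEB1 was highest in CL caudal, at 297 CPM before treatment, 121 CPM at 1 week and 307 CPM at 1 month, although this tumor also expressed epithelial genes. CL cranial had 72.1, 84.1 and 152 CPM, BM 30.7, 156 and 141 CPM, and RV 43.7, 80.3, 54.9 and 47.8 CPM. The sarcoma was therefore among the libraries with little ZEB1, and BM had its highest level at 1 week.

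ZEB2 was instead highest in the sarcoma, with 364 CPM in RV before treatment, 612 CPM at 2 days, and 329.8 and 310.0 CPM late. It was 34.6 CPM in BM before treatment, 181 CPM at 1 week and 109 CPM at 3 weeks. CL cranial had 52.1, 244 and 315 CPM and CL caudal 211, 175 and 324 CPM. Over the 13 libraries ZEB1 and ZEB2 were only weakly related (r = 0.24).

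VIM was 1016 CPM in BM before treatment, the lowest of the 13 libraries, 4046 CPM at 1 week and 8990 CPM at 3 weeks. The last value lies within the 8364 to 11543 CPM of the RV libraries other than the 2-day one, which had 1314 CPM. VIM was 1519, 2221 and 1862 CPM in CL cranial, and 6045, 10466 and 7167 CPM in CL caudal. The tumors of CL were apart by VIM at every time point.

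Before treatment, all 7 epithelial genes were higher in each of the 3 mammary tumors than in the sarcoma, an order that 27.7% of the 20118 tested genes shared. ZEB2 and VIM were lower in all 3, as were 25.7% of genes, and ZEB1 was not. In edgeR's quasi-likelihood test on the 4 pretreatment libraries, the mammary tumors were above the sarcoma by 7.09 ± 1.90 (log2, SE) for EPCAM, 6.99 ± 1.78 for ESRP1, 6.44 ± 1.58 for CLDN4, 5.81 ± 1.43 for GRHL2, 5.75 ± 1.69 for CDH1 and 3.37 ± 1.55 for CLDN7. CLDN3 had 2 counts in the sarcoma, fewer than the floor of 3, and its fold is not given. None of the 7 passed after Benjamini-Hochberg adjustment (adjusted p from edgeR 0.344 to 0.614), nor did any of the 21502 genes tested (0%). The design has 1 sarcoma and 2 residual degrees of freedom, and 1766 genes, 6 of the 7 epithelial genes among them, had an unadjusted p under 0.05. DESeq2's Wald test called those 6 genes, CLDN3 included and CLDN7 not, with 5.02% of all genes. Without CL caudal, edgeR called 9 of the 10 members, all but ZEB1, with 10.3% of all genes.

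CL cranial was above CL caudal for all 7 epithelial genes with no overlap between the 3 libraries of each tumor, as were 11.7% of tested genes. It was below CL caudal without overlap for VIM alone, as were 10.6% of genes. With time in the model, the difference was 5.09 ± 1.01 log2 for CLDN3 (edgeR adjusted p = 0.0830), 3.43 ± 0.86 for CLDN7 (0.133), 2.60 ± 1.16 for EPCAM (0.337) and -2.09 ± 0.87 for VIM (0.310). No member passed the threshold in edgeR, against 27 genes in all (0.134%) and 2888 at an unadjusted p under 0.05, of which 7 were members. DESeq2 called CLDN3 and CLDN7, with 7.06% of genes. Without the RV library of 2 days, edgeR also called CLDN3 (adjusted p = 0.0252) and CLDN7 (adjusted p = 0.0492), with 2.94% of genes, but with all of RV left out neither passed (adjusted p = 0.0861 and 0.127) and 0.0601% of genes were called. The libraries of CL cranial held more luminal epithelium markers too, with 2 of 8 called higher and a median difference of 3.99 log2 against 0.11 over all genes. Fibroblast markers were higher in CL cranial for 8 of 9 genes (median 2.54 log2, none called, 5 at an unadjusted p under 0.05), although VIM was lower there. Endothelium markers were higher for 6 of 8 (median 1.49, none called), and 1 of 8 bone markers was called lower. The part of these cell types in the difference was not tested.

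Early after treatment, EPCAM, CDH1, CLDN4, ESRP1 and GRHL2 were lower than before in each of the 3 mammary tumors, a pattern that 13.2% of tested genes had. EPCAM was lower by 1.92 log2 in CL caudal, 1.12 in CL cranial and 1.91 in BM. GRHL2 was lower by 0.85, 0.77 and 2.51 log2 in the same order, and CLDN4 by 0.50, 0.10 and 0.60. VIM was higher at 1 week in all 3, by 0.79, 0.55 and 1.99 log2, as were 15.6% of genes. Macrophage markers moved with this time point: the mean of 10 markers went from 4.59 to 7.72 log2 CPM in BM, from 5.57 to 7.48 in CL cranial and from 5.77 to 6.56 in CL caudal, where 4 of the 10 were lower. Other lists moved as much or more in single tumors. In BM the fibroblast list went from 6.81 to 10.6 and the endothelium list from 3.79 to 6.98 log2 CPM, in CL cranial the T cell list from 2.01 to 4.99, and in CL caudal the myoepithelium and smooth muscle list from 5.58 to 8.12. The part of these cell types in the lower epithelial and higher VIM levels was not tested. The epithelial mean, the average log2 CPM of the 7 genes, was lower by 0.95 in BM, 0.73 in CL cranial and 0.65 in CL caudal.

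Over all 4 tumors no member was called early against before by edgeR's quasi-likelihood test, which called 1 gene (0.00497%) and had 2184 genes at an unadjusted p under 0.05. ZEB2 was the only member of these, higher by 1.20 ± 0.53 log2 (adjusted p = 0.450), and it was higher in 3 of 4 tumors. The epithelial estimates ranged from -0.36 ± 1.10 for EPCAM to 0.92 ± 1.61 for ESRP1, since RV went opposite to the mammary tumors. With RV left out, EPCAM was at -1.67 ± 0.94, GRHL2 at -1.57 ± 0.68, ESRP1 at -1.19 ± 0.87 and ZEB2 at 1.45 ± 0.61, with edgeR adjusted p of 0.752 to 0.850. Over all 4 tumors DESeq2 called 956 of the 20118 genes tested and no member.

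**Figure D2:**
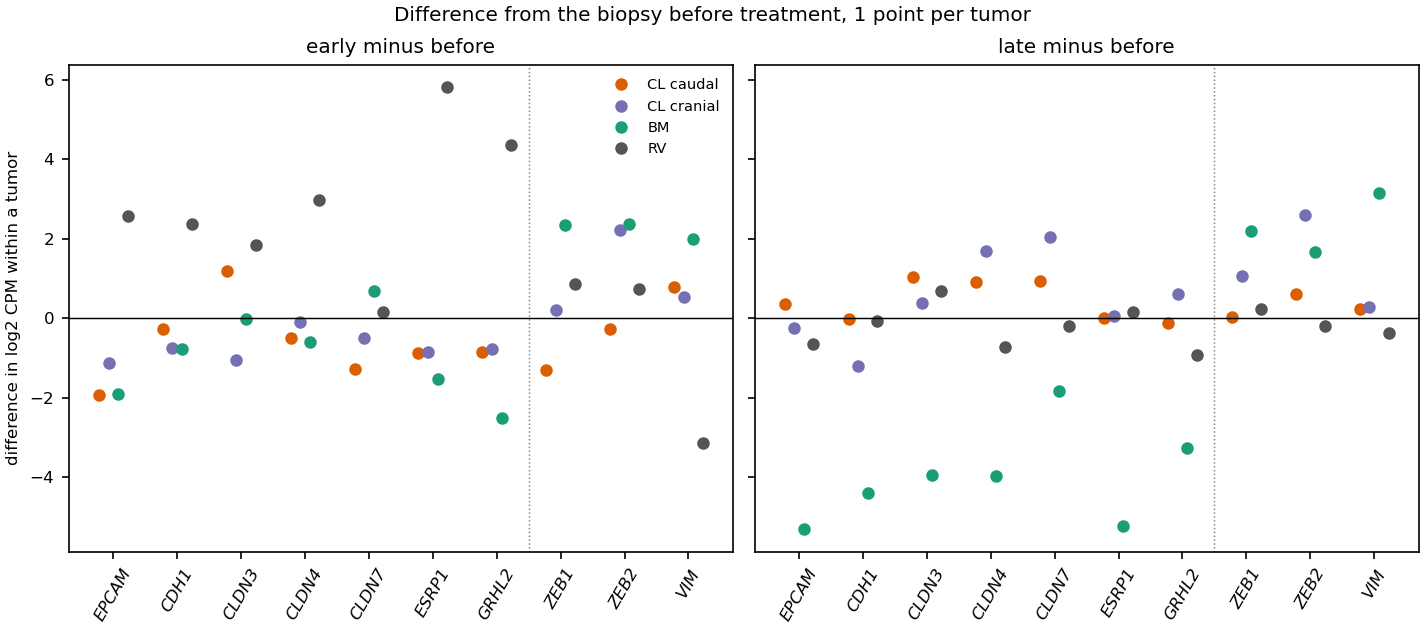
Difference in log2 CPM from the pretreatment biopsy of the same tumor, early (left) and late (right), for the 7 epithelial genes and, right of the dotted line, the 3 mesenchymal genes; each point is 1 tumor, with the late sites of RV averaged. Early, RV lies above the mammary tumors for the epithelial genes other than CLDN7, and late, BM lies below all others for the 7 epithelial genes.

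The RV biopsy of 2 days differed from the other early changes. ESRP1 was 67.9-fold and GRHL2 22.2-fold higher in CPM than in RV before treatment, from pretreatment counts of 7 and 18. EPCAM, CDH1 and CLDN4 were higher by 2.58, 2.38 and 2.99 log2, and VIM was lower by 3.13 log2. Of the 7 epithelial genes 5 were higher by at least 2 log2, against 27.7% of all tested genes, and VIM was lower by at least 2 log2, as were 9.95% of genes. In an edgeR quasi-likelihood fit with a term for this library, GRHL2 (6.11 ± 0.96 log2, adjusted p = 0.00979) and ESRP1 (6.38 ± 1.38, adjusted p = 0.0176) rose relative to the early change of the mammary tumors. The other 8 members did not pass, with EPCAM at 4.11 ± 1.33 (0.0610), CLDN4 at 4.08 ± 1.34 (0.0632) and VIM at -3.20 ± 1.21 (0.0952). The same test called 13.5% of all genes, and 2 of 10 members is near that share. The arm tested is 1 library, which is taken to vary like the others. It is set against the pretreatment and late RV libraries together, given the time effects of the other tumors.

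Other libraries moved these calls. DESeq2 called EPCAM, CLDN4 and VIM beside ESRP1 and GRHL2, with 26.3% of genes. Without the BM library of 3 weeks, edgeR called 6 members, EPCAM, CDH1, CLDN4, ESRP1, GRHL2 and VIM, with 24% of genes. Without CL caudal it called GRHL2 alone (adjusted p = 0.0452), with 1.89% of genes, and GRHL2 was also the only member called without CL cranial, without RV before treatment or without the adjacent late site of RV. Epidermis markers rose in the 2-day library, with 7 of 12 called higher and a median of 6.05 log2, as did 4 of 6 neutrophil markers, while the fibroblast list had 8 of 9 genes lower and 1 called. The summed level of 14 epidermis markers was 3441 CPM at 2 days and 53 to 78 CPM in the other RV libraries. The part of these markers in the higher epithelial and lower VIM levels was not tested. At 2 weeks the late sites of RV differed from each other by 0.06 log2 in the epithelial mean and 0.16 in the mesenchymal mean, and from the pretreatment biopsy by 0.23 and 0.11 on average. Single epithelial genes were further apart and in both directions, the adjacent site against the injection site being at -1.29 log2 for ESRP1, 1.16 for CLDN4, 0.73 for EPCAM and -0.70 for CLDN7.

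At 3 weeks after the second treatment, all 7 epithelial genes of BM were below the pretreatment biopsy. EPCAM was 40.0-fold lower in CPM, ESRP1 38.9-fold, CDH1 21.2-fold, CLDN3 and CLDN4 15.7-fold each, GRHL2 9.71-fold and CLDN7 3.62-fold. VIM was 8.85-fold higher, ZEB1 4.58-fold and ZEB2 3.17-fold. In BM, 6 of the 7 epithelial genes, all but CLDN7, were lower by at least 2 log2, against 15.3% of tested genes. ZEB1 and VIM were higher by at least 2 log2, against 6.32% of genes. Only 0.944% of tested genes had a lower value than EPCAM in this difference, 1.01% than ESRP1 and 2.09% than CDH1, but 16.9% than CLDN7. VIM was above 98.0% of genes.

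The path from the pretreatment to the third biopsy of BM was not the same for each gene. The same 6 epithelial genes were lower at each of the 2 steps, as were 24.4% of genes, though for CLDN3 the first step was only 0.03 log2. VIM alone among the mesenchymal genes was higher at each step, as were 20.4% of genes. ZEB1 and ZEB2 were higher by 2.34 and 2.38 log2 at 1 week, and at 3 weeks by 2.19 and 1.66, no further than at 1 week. The epithelial mean was lower by 0.95 log2 at 1 week and by 3.99 at 3 weeks, and the mesenchymal mean was higher by 2.24 and 2.33. Most of the mesenchymal difference was thus present at 1 week, and most of the epithelial difference appeared later.

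**Figure D3:**
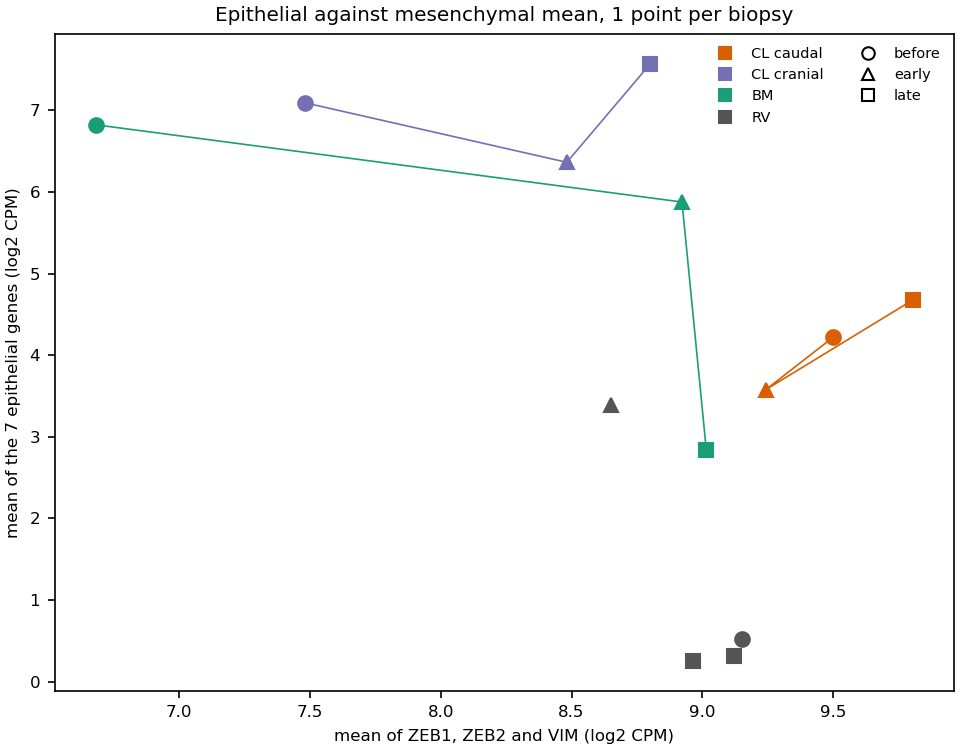
Mean log2 CPM of the 7 epithelial genes against that of ZEB1, ZEB2 and VIM, 1 point per biopsy; color gives the tumor, shape the time, and lines join the biopsies of each mammary tumor in order of time. BM moves right at 1 week (6.68 to 8.92) and then down at 3 weeks (5.88 to 2.84), below the mammary libraries and above the RV libraries other than the 2-day one.

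In an edgeR quasi-likelihood fit of all 13 libraries with a term for the third BM biopsy, none of the 10 members passed the adjusted threshold, nor did any other gene (0%). This term sets the third biopsy against both earlier biopsies of BM, pretreatment and 1 week, given the time effects shared with the other tumors. CLDN3 was at -4.22 ± 1.19 log2, EPCAM at -4.13 ± 1.91, CLDN4 at -3.88 ± 1.93 and ESRP1 at -3.80 ± 2.66. CLDN7 was at -3.35 ± 1.17, CDH1 at -3.22 ± 1.21 and GRHL2 at -1.77 ± 2.38. VIM was at 1.82 ± 1.42, ZEB1 at 0.46 ± 1.0 and ZEB2 at -0.0033 ± 1.04. The higher ZEB1, ZEB2 and VIM of BM at 1 week are part of its reference level here. At an unadjusted p under 0.05 there were 1210 genes, with CLDN3, CLDN7 and CDH1 among them, and DESeq2 called CLDN3 (adjusted p = 0.00799) with 2.88% of genes.

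The result of this fit depended on single libraries. Without BM before treatment, EPCAM was at -2.61 ± 1.93 log2, ESRP1 at -0.93 ± 2.74, GRHL2 at 1.54 ± 2.46 and VIM at 0.86 ± 1.49, and without BM at 1 week VIM was at 3.06 ± 1.5, with no gene called by edgeR (0%) in either and 1220 and 1404 genes at an unadjusted p under 0.05. Without the RV library of 2 days, edgeR called EPCAM (-5.03 ± 0.78 log2, adjusted p = 0.0363), ESRP1 (-5.09 ± 0.81, adjusted p = 0.0363) and CDH1 (-3.88 ± 0.71, adjusted p = 0.0487) in the same comparison, with 0.398% of all genes. CLDN4 (-4.67 ± 0.90, adjusted p = 0.0544) and CLDN3 (-4.62 ± 0.93, adjusted p = 0.0612) did not pass. Among the mammary tumors alone, with all of RV left out, the 7 epithelial genes lay between -5.21 and -2.77 log2 and none passed (adjusted p from edgeR 0.161 to 0.216). CLDN3, for which RV has few counts, was at -4.55 ± 0.98 there. These tests take the lone BM library to vary like the others. Averaged over the 4 tumors, late against before called no member and no gene (0%), with 805 genes and no member at an unadjusted p under 0.05. The largest estimates were -1.44 ± 1.33 for ESRP1 and -1.32 ± 0.70 for CDH1 (edgeR adjusted p = 0.973), and DESeq2 called 7 genes and no member. CDH1 was the only epithelial gene lower in all 4 tumors late, although by just 0.01 and 0.05 log2 in CL caudal and RV. Late against early, edgeR called 2 genes (0.00994%), with 5355 at an unadjusted p under 0.05. DESeq2 called 4809 of the 20118 genes tested, and neither edgeR nor DESeq2 called a member. Without the RV library of 2 days edgeR called no gene (0%), with 3469 at an unadjusted p under 0.05. The members then had adjusted p of 0.526 to 0.992. With all of RV left out, EPCAM late against early went from -0.90 ± 1.04 to 0.72 ± 1.01 log2, and CLDN4 from -0.96 ± 1.06 to 0.76 ± 0.97. ESRP1 went from -2.36 ± 1.49 to 0.13 ± 0.92, GRHL2 from -1.71 ± 1.33 to 0.71 ± 0.66 and ZEB2 from -0.25 ± 0.48 to 0.08 ± 0.58. CDH1 and CLDN3 stayed below 0, and CLDN7, ZEB1 and VIM above.

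The wider junction and regulator lists were mostly lower in the third BM biopsy. Against the pretreatment biopsy of BM, 14 of 16 other tight junction genes, 14 of 15 adherens junction and desmosome genes and 19 of 19 other epithelial regulators were lower, as were 10402 of the 20118 genes tested. In the fit with a term for the third BM biopsy, 16 of 16 tight junction genes lay below 0 (median -3.15 log2). So did 15 of 15 adherens junction and desmosome genes (median -1.09) and 19 of 19 regulators (median -3.69). The median of all genes was -0.05. None was called by edgeR, and 8, 2 and 8 of them had an unadjusted p under 0.05, as had 6.01% of all genes. CLDN1, another claudin, was 241 CPM in BM before treatment, 79.3 CPM at 1 week and 11.5 CPM at 3 weeks. The tight junction gene MARVELD3 had 28.6, 12.7 and 1.47 CPM. The afadin gene AFDN, which links junction proteins to actin, had 278, 136 and 37.0 CPM, and the desmosomal cadherin DSG2 165, 75.3 and 9.03 CPM. The epithelial transcription factors KLF5 and ELF3 had 77.3, 19.6 and 3.19 CPM and 77.0, 58.4 and 2.90 CPM. Not every catenin followed, since CTNNB1 had 1525, 614 and 1932 CPM and CTNNA1 241, 318 and 221 CPM.

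Other genes of the mesenchymal switch were higher in BM at 3 weeks than before in 20 of 20 cases, with a median of 2.23 log2, where 9666 of the 20118 genes tested were higher. In the fit with a term for the third BM biopsy, 16 of 20 lay above 0 (median 2.33), against 48.6% of all genes. TGFB1, a cytokine that induces the transition, had 22.3, 44.0 and 149 CPM. SNAI1, a repressor of CDH1 like the ZEB proteins, had 4.75, 12.5 and 33.8 CPM, and SNAI2 16.0, 11.9 and 60.6 CPM. The cadherin gene CDH11, found in mesenchymal cells, had 67.0, 115 and 621 CPM. TGFB2 (-1.38 ± 1.47 log2) and S100A4 (-0.97 ± 1.72) lay below 0 in the fit with the BM term, but were not called. In BM, TGFB2 had 17.8, 50.1 and 19.0 CPM in order of time, and S100A4 47.8, 377 and 282 CPM. Both were highest at 1 week, which is part of the reference level in that fit.

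Over all 4 tumors none of the 70 list genes tested was called by edgeR early or late, and values are given for genes with the smallest p in each direction. The edgeR adjusted p of the list genes were 0.361 to 0.995 early and 0.973 to 0.999 late, and the SE of the named estimates 0.446 to 1.09 early and 0.337 to 1.13 late (log2). Early against before, the tight junction genes F11R (0.99 log2) and CRB3 (0.80) lay above 0 and CLDN1 (-1.91) and PARD6B (-0.85) below. Of the adherens junction and desmosome genes, EVPL (1.83) and PPL (1.05), which build the cornified envelope of the epidermis, lay above and CTNNB1 (-1.19) and AFDN (-0.66) below. The regulator GRHL3 (1.24) was opposite to TFAP2C (-0.83) and KLF5 (-0.89), and the mesenchymal genes SNAI1 (2.29) and TGFBI (1.97) opposite to TGFB3 (-0.84) and CDH11 (-0.61). The early median of the 20 mesenchymal switch genes was 0.28 log2, that of the 16 tight junction genes -0.13, and that of all genes 0.25. Late against before, EVPL (-2.87), DSP (-2.07), CGN (-1.55) and F11R (-0.81) had the smallest p among the junction genes below 0. All 16 tight junction genes (median -0.71) and all 19 regulators (median -1.09) lay below 0, against a median of -0.05 for all genes. CTNNB1 (0.53), CTNNA1 (0.06), S100A4 (1.28) and TGFBR1 (0.51) lay above 0, and SNAI2 (-0.06) and MMP2 (-0.07) near it. The late medians of the lists include the third BM biopsy.

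Marker lists of other cell types moved in the same BM biopsies. The mean of 9 fibroblast markers, led by COL1A2 and COL1A1, was 6.81, 10.6 and 11.5 log2 CPM, and their summed level 1419, 30295 and 102733 CPM. Bone markers had means of 1.96, 2.37 and 4.27 log2 CPM, with 5 of 8 higher at 3 weeks than before. Macrophage markers had 4.59, 7.72 and 6.72 log2 CPM, all 10 above the pretreatment biopsy at both times. The luminal epithelium list was 6.81, 6.78 and 3.62 log2 CPM, so at 1 week it was near its pretreatment level while EPCAM was 3.76-fold and GRHL2 5.72-fold lower. The epidermis list was 4.39, 1.06 and -0.04 log2 CPM, with 7 of its 14 markers at 0 in the last biopsy. The endothelium list was 3.79, 6.98 and 4.67 log2 CPM, the T cell list 2.62, 3.88 and 2.90, the neutrophil list 2.55, 1.69 and 0.50, and the adipose list -1.09, 1.11 and 0.82. The myoepithelium and smooth muscle list was 6.99, 7.74 and 5.13 log2 CPM. The part of these cell types in the values of the 10 genes was not tested.

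**Figure D4:**
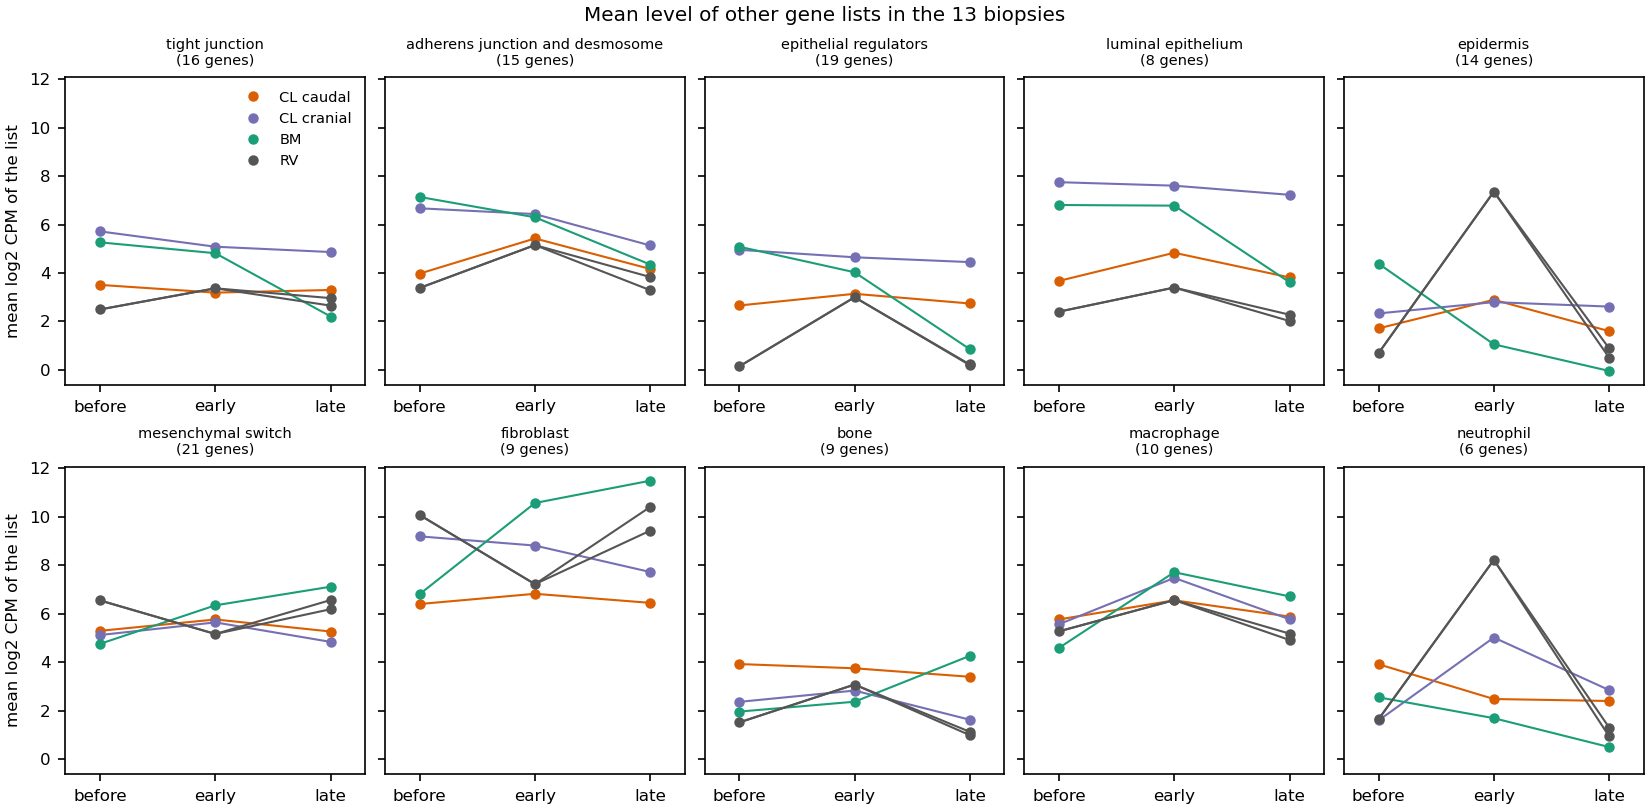
Mean log2 CPM of 4 pathway lists and 6 marker lists (members excluded) in the 13 biopsies, before, early and late, with a line per tumor. Within BM the junction, regulator and luminal lists are lowest in the last biopsy, and the fibroblast list ends at 11.5. In RV the epidermis and neutrophil lists peak at 2 days at 7.36 and 8.22.

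Across the 13 libraries the 7 epithelial genes varied together, with Pearson r of log2 CPM from 0.72 to 0.98 in their 21 pairs (median 0.91). Their r with VIM lay between -0.86 (ESRP1) and -0.60 (CLDN7), and with ZEB2 between -0.59 (CLDN3) and -0.30 (CLDN7). With ZEB1 they lay from 0.11 (CLDN3) to 0.37 (CLDN4), none below 0. Without the RV library of 2 days, the r over 12 libraries were 0.78 to 0.98 among the epithelial genes, -0.87 (ESRP1) to -0.75 (GRHL2) with VIM, -0.56 (GRHL2) to -0.21 (CLDN7) with ZEB2 and 0.09 (CLDN3) to 0.37 (GRHL2) with ZEB1. The libraries share tumors and dogs, so these are descriptions over 13 points that are not independent. The 5 genes outside the set most like EPCAM over the 13 libraries were CXADR (r = 0.99), GABRP (0.98), AP1M2 (0.97), SH3YL1 (0.97) and CLDN8 (0.96). Those most like ZEB1 were LOC102155629 (0.93), PRKAR2B (0.91), SYNDIG1 (0.91), RSPO3 (0.91) and LOC119873404 (0.90).

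By the epithelial mean, the order of the libraries ran from 7.58 log2 CPM in CL cranial at 1 month through 7.09 in CL cranial and 6.83 in BM before treatment to 0.25 in RV adjacent to the injection site. The third BM biopsy, at 2.84, ranked 10 of 13, below the RV library of 2 days (3.39) and CL caudal at 1 week (3.58), and above the other 3 RV libraries (0.25 to 0.52). Without repeat biopsies of BM, no spread can be given for that place in the order, and the late sites of RV, 0.06 apart in this mean but up to 1.29 apart in a single gene, are the only pair of biopsies from 1 mass at 1 time.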

How the data were processed

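RNA from 13 tumor biopsies was sequenced as strand-specific libraries. According to the methods of the study, alignment was to CanFam4.0 in Strand NGS, and the authors deposited unnormalized read counts for each symbol. The counting rule, the annotation and the treatment of reads shared by several genes are not given in the sources used here, so near-identical or overlapping genes are uncertain. Samples were mapped to tumor and time by their labels, and 98.0% of symbols matched RefSeq. The 10 genes, the gene lists and the tests were chosen with earlier results of these data known.

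The filterByExpr function, given the time groups and a minimum count of 10, kept 20118 genes. For the 4 pretreatment libraries it was given the tumor type in place of the time groups, and kept 21502. Library sizes were normalized by TMM, and edgeR 4.0.16 (R 4.3.3) was used for the quasi-likelihood test with tumor and time as factors, with Benjamini-Hochberg adjustment over all genes and a threshold of 0.05. A called gene is one with an adjusted p under that threshold. A single library (BM at 3 weeks, RV at 2 days) was tested by a term of its own. Each term sets its library against all others of the same tumor together, given the time effects of the other tumors. Differences within a tumor are of log2 CPM with a prior count of 2 and rest on single libraries. The biological coefficient of variation was 0.672 with 7 residual degrees of freedom in the fit with tumor and time, 0.663 and 0.533 with 6 in those with a term for BM and RV, and 0.793 with 2 before treatment. The tumor block comes from repeated biopsies of the same mass. Deviations of same-tumor libraries correlated at 0.59 on average between before and late and 0.23 between before and early, against -0.20 and -0.07 between tumors. Each pair of libraries differed beyond sampling noise (lowest chi-square divided by its degrees of freedom 44.5), so none was counted as a copy. Counts of 3 or more were taken as detected, which covers counting error only.

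Beside the 10 members, the text names from each of 4 pathway lists up to 2 genes with the smallest p in each direction in 3 comparisons, apart from some regulator genes that are not reported here, and the 5 genes most like EPCAM and ZEB1. Marker lists (10) are given by counts and means. The lists were written from general knowledge. Alternatives were DESeq2 1.42.0, its size factors, no low-count filter, no block, each library or tumor left out, late RV sites summed, and a prior count of 0.5. CL cranial against CL caudal, and the correlations without the RV library of 2 days, were added after the values were seen. The steps were tested on simulated data. Levels per transcript length were not computed, because no transcript lengths were used here. Python 3.11.15, numpy 2.4.6, pandas 2.3.3, scipy 1.17.1 and matplotlib 3.10.9 served for other steps.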

Additional observations from a re-analysis of the deposited data

Results flagged for a closer look

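In the late group of 5 libraries, ZEB2 was lowest in BM at 3 weeks, at 6.77 log2 CPM, with the other 4 between 8.28 and 8.37. VIM was lowest in CL cranial at 1 month, at 10.86 log2 CPM, with the other 4 between 12.8 and 13.2. In each case the gap to the nearest library was past Dixon's critical value. Chance gives about 1 in 20 such gaps, and 36 groups were examined, so 1.8 would arise without any cause and 2 were seen.

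In the edgeR fit with a term for RV at 2 days, GRHL2 was at 6.11 log2 and ESRP1 at 6.38. RV also went opposite to all 3 mammary tumors early in plain differences from the pretreatment biopsy. EPCAM was 2.58 log2 in RV and -1.92 to -1.12 in the mammary tumors, CDH1 2.38 and -0.76 to -0.27, CLDN4 2.99 and -0.60 to -0.10, ESRP1 5.81 and -1.52 to -0.85, and GRHL2 4.37 and -2.51 to -0.77. VIM was -3.13 log2 in RV and 0.55 to 1.99 in the mammary tumors. These 6 plain differences were not tested as such. The term above rests on 1 RV library, set against the pretreatment and late RV libraries together, given the time effects of the other tumors. Late, ZEB2 was -0.19 log2 in RV and 0.62 to 2.59 in the mammary tumors, and VIM -0.37 and 0.25 to 3.15. These late differences between RV and the mammary tumors were not tested. Tumor type, dog, time and number of treatments cannot be told apart in them.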

How the results depend on the processing

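The number of called genes depended strongly on the tool and on single libraries. Leaving out 1 library or tumor, edgeR called 0 to 12 genes early against before, 0 to 0 late against before, 0 to 2000 late against early, 0 to 81 for BM at 3 weeks (members 0 to 3), 396 to 5143 for RV at 2 days (members 1 to 6), 23 to 2171 for mammary against sarcoma (members 0 to 9) and 1 to 599 for CL cranial against caudal (members 0 to 2). In that order of comparisons DESeq2's Wald test called 956, 7, 4809, 579, 5298, 1080 and 1420 genes, and 1, 5, 6 and 2 members in the last 4. Without a low-count filter the counts were 17 early, 1081 late against early, 5 for BM, 409 (6 members) for mammary against sarcoma and 105 (1 member) for CL. DESeq2 size factors, the late RV sites summed, or the compared libraries alone gave 0 early, and the latter pair gave 0 late against early. Summing these sites gave 1236 for RV and 10 for CL, and all 13 libraries with time as a factor gave 589 genes and 4 members for mammary against sarcoma. Without the replicate block of tumors, the counts were 0 early, 0 late against early, 1 for BM and 1 for RV, with 0 members. The BM test without BM, the RV test without RV and the CL comparison without a CL tumor could not be fitted.

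The following tally of members leaves out late against early. Of 1120 values of members under 25 other settings, 989 kept their direction and side of the threshold. The sign changed for 76, in 23 of 60 results. The cause was not tested. Early, the sign turned without a low-count filter for CDH1 (-0.031). It turned without the replicate block for CDH1 (-0.63), CLDN3 (-0.47), CLDN4 (-0.30), ESRP1 (-0.65), GRHL2 (-1.08), ZEB1 (-0.0081) and VIM (-0.16), and with only the compared libraries for ESRP1 (-0.12) and GRHL2 (-0.38). Late, CLDN4 turned to 0.40 without the block and 0.089 with RV sites summed. For RV at 2 days without the block, which compares levels and not changes, EPCAM was -2.94, CDH1 -2.67, CLDN3 -5.29, CLDN4 -3.01, CLDN7 -2.99 and ZEB1 -0.58. Leaving out a library or tumor gave these ranges where a sign turned: early EPCAM -1.67 to 0.98, CDH1 -0.64 to 0.89, CLDN4 -0.58 to 1.93, CLDN7 -0.83 to 0.31, ESRP1 -1.19 to 2.84, GRHL2 -1.58 to 2.0, ZEB1 -0.093 to 1.08 and VIM -0.41 to 0.96. Late these were CLDN3 -0.80 to 0.64, CLDN4 -1.36 to 0.72 and CLDN7 -0.11 to 1.01. For BM they were GRHL2 -3.12 to 1.54, ZEB1 -0.48 to 1.82 and ZEB2 -0.69 to 0.86, for RV ZEB2 -0.30 to 0.94, and for CL GRHL2 -0.47 to 2.64. Depth limits CLDN3, CLDN4, ESRP1 and GRHL2 in RV, which had 2 to 18 counts in the libraries other than the 2-day one.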
